A study of Mus musculus with 2 samples.

Results

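The metabolic genes Arg2, Cps1, Otc, Ass1 and Oat, (5 in all) were followed in sorted crypt cells of the mouse jejunum, out of the 31053 genes of the files. They were taken by gene symbol and chosen with their levels in these libraries already known, so the contrast between the libraries is given as a description. All mice had the Lgr5-eGFP-IRES-CreER allele, which places a green fluorescent reporter and an inducible recombinase under the stem cell gene Lgr5, and GFP-positive cells had been sorted. Both groups shared this allele, were labelled female and were 10 to 12 weeks old; 1 group had received an Fc control protein and the other an antagonist of FZD5 and FZD8, receptors for Wnt ligands. For dose and length of treatment, the sources used here give no value. Each group was 1 droplet library (10x Genomics, 3′ chemistry) made from 3 mice that the labels do not tell apart, so each comparison is between these libraries and has no replicate check and no p-value.

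Arginase 2, encoded by Arg2, is the mitochondrial arginase, which splits arginine into ornithine and urea. Cps1 encodes carbamoyl phosphate synthetase and Otc ornithine transcarbamylase, the mitochondrial enzymes that make citrulline from ammonia, bicarbonate and ornithine. Ass1 encodes argininosuccinate synthetase, the cytosolic enzyme that takes citrulline back towards arginine. Oat encodes ornithine aminotransferase, which links ornithine to the pathway from glutamate and proline. The small intestine is known for making citrulline and releasing it to the kidney. Wnt signals keep crypt base stem cells in place, and their descendants divide in the crypt before they become absorptive or secretory cells.

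On GRCm38 (GENCODE vM21), Arg2 (ENSMUSG00000021125) lies on the plus strand of chromosome 12 at 79130777 to 79156301. Cps1 (ENSMUSG00000025991) lies on the plus strand of chromosome 1 at 67123026 to 67231259. Otc (ENSMUSG00000031173) lies on the plus strand of chromosome X at 10252305 to 10321024. Ass1 (ENSMUSG00000076441) lies on the plus strand of chromosome 2 at 31470207 to 31520672. Oat (ENSMUSG00000030934) lies on the minus strand of chromosome 7 at 132557478 to 132576398. The annotated span of Arg2 overlaps Vti1b and the gene model Gm48780 on the other strand, and that of Oat overlaps an annotated part of Fgfr2 on its own strand. The sources used here do not say how the counting treated strand and overlaps. Vti1b, which encodes a vesicle fusion protein, was at 78.6 CPM in the control and 82.4 CPM with the antagonist (CPM is counts per 1000000 UMIs of the library or gate), 1.05-fold higher. Fgfr2, a growth factor receptor gene, was at 10.1 and 2.60 CPM.

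The start regions of 3 of the 5 genes are held in the RefSeq promoter table (GRCm38.p6), and are shown because their base composition differs: Ass1 at chr2:31470020-31470289 (plus strand), Oat at chr7:132576379-132576648 (minus strand) and Otc at chrX:10252055-10252324 (plus strand). Each runs 5′ to 3′ on the strand of its gene, from 250 bases before the start to 20 after it, and the capitals mark the GC box GGGCGG.
Ass1: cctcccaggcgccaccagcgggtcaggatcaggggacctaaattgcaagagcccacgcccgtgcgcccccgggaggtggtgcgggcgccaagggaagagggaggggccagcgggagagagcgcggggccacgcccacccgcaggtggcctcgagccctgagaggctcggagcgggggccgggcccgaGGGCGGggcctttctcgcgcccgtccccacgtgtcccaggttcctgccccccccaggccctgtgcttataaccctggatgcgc
Oat: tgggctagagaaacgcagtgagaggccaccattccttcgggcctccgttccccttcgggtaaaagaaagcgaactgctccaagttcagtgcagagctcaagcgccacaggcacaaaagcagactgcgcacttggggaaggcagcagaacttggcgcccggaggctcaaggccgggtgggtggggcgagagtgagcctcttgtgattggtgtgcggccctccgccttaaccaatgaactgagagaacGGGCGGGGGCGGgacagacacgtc
Otc: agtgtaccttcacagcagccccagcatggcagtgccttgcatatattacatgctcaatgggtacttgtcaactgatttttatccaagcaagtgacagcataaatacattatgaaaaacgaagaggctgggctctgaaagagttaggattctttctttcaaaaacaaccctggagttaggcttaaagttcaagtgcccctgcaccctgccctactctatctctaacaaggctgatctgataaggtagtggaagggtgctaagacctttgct
G and C made up 74.1% of the Ass1 stretch, 61.1% of the Oat stretch and 44.1% of the Otc stretch. The GC box stood at -63 from the start in Ass1, and at -4 and 3 in Oat; it was found in 35.7% of the 32851 RefSeq promoters of 300 bases. Both strands were also searched for the TCF/LEF strings CTTTGAT, held by 3.73% of promoters, and CTTTGAA, held by 5.14%. The HNF4 string CAAAGTCCA was held by 0.475% of them, and the CDX string TTTATGG by 2.75%. The CREB string TGACGTCA was held by 1.79%, and the TATA box TATAAA by 13.6%. None of these 6 strings was in the 300-base windows of the 3 genes. A match or its absence describes these letters in this window only. Arg2 and Cps1 were not matched in the table.

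The control library kept 11263 cells with 66206242 UMIs (unique molecular identifiers, counted transcripts) and the antagonist library 11019 cells with 54328008 UMIs, at medians of 4478 and 2732 UMIs per cell; 145 barcodes occurred in both. Both libraries are labelled female, but Xist was at 1.33 CPM in control and 512 CPM in antagonist cells, and 4 Y-linked genes together at 106 and 5.60 CPM. The condition and the sex-linked difference cannot be told apart in any result below, and Otc is X-linked. Lgr5 itself was at 66.2 and 3.09 CPM. Lists of 3 to 6 markers each for T, B and plasma, myeloid, fibroblast, endothelial, erythroid and neural cells summed to at most 23.9 CPM in a library (the B and plasma cell list in the control), and the collagen genes Col1a1 and Col3a1 were at 0 in both. The part of these cells in the results was not tested.

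Over all kept cells, Arg2 was higher in the antagonist library, while Otc was slightly higher, Cps1 and Ass1 were lower and Oat was level. Arg2 had 3195 UMIs in control cells, 48.3 CPM (46.6 to 49.96), and 11416 UMIs in antagonist cells, 210 CPM (206 to 214), a level 4.35-fold higher (4.19 to 4.53). Here and below the intervals are exact 95% intervals and cover counting error only. Otc was at 168 CPM in control and 219 CPM in antagonist cells, 1.30-fold higher (1.27 to 1.34). Cps1 was at 645 and 489 CPM, 1.32-fold lower (1.30 to 1.34). Ass1, with 696 and 371 UMIs, was at 10.5 and 6.83 CPM, 1.54-fold lower (1.36 to 1.75). Oat was at 734 and 737 CPM, which is 1.004-fold (0.991 to 1.02).

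A gene was called where it differed by 1.5-fold or more, among genes with at least 20 UMIs over both libraries. Arg2 was then 1 of 5 members higher, beside 6.5% of the 13757 genes considered, and Ass1 1 of 5 lower, beside 19.3%. The members were chosen with this contrast known, so nothing is read from these counts. The median log2 ratio over all genes was -0.15. Scaling by a median-of-ratios size factor moved it to -0.040, and Arg2, Otc and Oat then had log2 ratios of 2.24, 0.50 and 0.12 and Cps1 -0.29. Ass1 was then at -0.51, short of 1.5-fold, so it was no longer called lower.

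The cells were next divided by what they expressed, with none of the 5 genes among the markers. Cells were gated on the share of their UMIs from tuft, enteroendocrine, Paneth, goblet, apolipoprotein and fatty acid binding (mature enterocyte), brush border enzyme, G2/M phase and S phase genes. Of the remaining cells, those with an Lgr5 UMI were called stem and those with at least 10 Olfm4 UMIs per 10000 Olfm4-positive; Olfm4 is an abundant secreted marker of the crypt base. The stem gate took 1814 control cells (16.1%) and 45 antagonist cells (0.408%), and the Olfm4-positive gate 33.3% and 4.27% (3747 and 470 cells). S phase cells were 8.71% and 10.4% (981 and 1151), G2/M phase cells 25.2% and 37.8% (2836 and 4163), and mature enterocyte cells 1.70% and 4.80% (192 and 529). No gate took 640 control and 2690 antagonist cells. The thresholds are cuts through ranges: 865 control and 1613 antagonist cells lay within 20% of the G2/M threshold, and 47 and 245 within 20% of the mature enterocyte threshold. For the S phase threshold 1361 and 1543 cells lay within 20%, against 1479 and 2023 above it. At the brush border threshold 393 and 839 did, against 464 and 1263 above it. These counts are over all kept cells, so those 2 gates lie largely near their cuts. In the antagonist library 43 of the 45 stem gated cells had a single Lgr5 UMI, against 1272 of 1814 in the control, and their stem marker UMIs had a median of 17.1 per 10000 against 43.6. The brush border gate held 267 control and 761 antagonist cells; in the control these had a median of 33.9 stem list UMIs per 10000 and 61.5 CPM of Lgr5, against their name, so they are described by their rule and not as enterocytes.

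Within the control library, Arg2 was highest in mature enterocyte cells. It was at 24.5 CPM in stem gated cells (21.7 to 27.6), 23.7 CPM in Olfm4-positive cells (21.4 to 26.1), 38.8 CPM in S phase cells (33.8 to 44.4) and 42.6 CPM in G2/M phase cells (39.7 to 45.6). It was at 245 CPM in cells of the brush border gate (216 to 277) and 446 CPM in mature enterocyte cells (417 to 477). In the brush border gate 49 of 267 cells (18.4%) had an Arg2 UMI, with 5.29 on average in each. The intervals take no account of such differences between cells. The mature enterocyte level was 18.2-fold above the stem level (15.9 to 21.0) and 10.5-fold above the G2/M level (9.51 to 11.6). The intervals of neighbouring gates in this order overlapped from G2/M phase down to tuft cells and were separate between mature enterocyte, brush border and G2/M phase. Among secretory cells, Arg2 was at 33.4 CPM in goblet cells, 17.3 CPM in enteroendocrine cells (6 UMIs), 14.4 CPM in tuft cells (11 UMIs) and 2.02 CPM in Paneth cells (6 UMIs).

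In the antagonist library the order at the top was the same, but the crypt gates stood closer to it. Arg2 was at 160 CPM in stem gated cells (112 to 223, 35 UMIs in 45 cells), 65.7 CPM in Olfm4-positive cells (51.3 to 82.9), 156 CPM in S phase cells (143 to 170) and 214 CPM in G2/M phase cells (209 to 219). It was at 336 CPM in the brush border gate (309 to 364) and 547 CPM in mature enterocyte cells (518 to 578). The mature enterocyte level was 3.42-fold above the stem level (2.44 to 4.93) and 2.56-fold above the G2/M level (2.41 to 2.72).

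Set side by side between the libraries, the Arg2 level was 6.54-fold higher with the antagonist in stem gated cells (4.46 to 9.33), 2.77-fold in Olfm4-positive cells (2.12 to 3.58), 4.02-fold in S phase cells (3.43 to 4.74) and 5.02-fold in G2/M phase cells (4.67 to 5.42). It was 1.37-fold higher in the brush border gate (1.18 to 1.59) and 1.23-fold higher in mature enterocyte cells (1.13 to 1.34). The stem and brush border values depended on how the cells were taken. The stem value, from 35 antagonist UMIs, went from a log2 ratio of 2.71 to 1.69 without the 5% of cells with the most UMIs. The brush border value went from 0.46 to 1.21 without those cells, to 1.68 with each cell weighted alike and to 1.82 with halved thresholds. The ratio in mature enterocyte cells stayed below those of the S phase and G2/M phase gates, and halved thresholds turned it to a log2 ratio of -0.079. In the stem gate, 19.6% of 10854 genes were called higher and 24.6% lower, in G2/M phase cells 8.65% and 17.7% of 12315, and in mature enterocyte cells 11.4% and 6.65% of 8560. The shares called higher were 5.13% in S phase cells, 10.4% in Olfm4-positive cells and 8.7% in the brush border gate. Some transcripts of other cell types were also higher with the antagonist in some of these gates. Fabp1, an enterocyte fatty acid binding protein gene, was at 123 and 769 CPM in stem gated cells, 179 and 587 CPM in S phase cells and 168 and 947 CPM in G2/M phase cells of the control and antagonist libraries. In G2/M phase cells Muc2, the goblet cell mucin gene, was at 7.38 and 117 CPM, and the Paneth cell lysozyme gene Lyz1 at 121 and 484 CPM. Lyz1 was also higher in stem gated cells, at 138 and 302 CPM. It was lower with the antagonist in S phase cells, at 110 and 56.0 CPM, and in Olfm4-positive cells, at 161 and 76.8 CPM. Over whole lists, the median G2/M phase cell had 6.56 and 21.6 UMIs per 10000 from the 6 mature enterocyte genes, 2.35 and 4.27 from the 8 goblet genes, and 64.1 and 41.5 from the 10 Paneth genes. The part of these transcripts in the Arg2 ratios was not tested. Without the mature enterocyte, brush border and secretory gates the log2 ratio of Arg2 over the remaining cells was 2.52, against 2.12 over all cells. With every gate given the same weight in both libraries it was 1.51.

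Secretory gates showed the same direction, beside 6.86% of genes called higher and 9.89% lower in goblet cells. Arg2 was at 132 CPM in antagonist goblet cells, 3.95-fold above the control goblet level (3.03 to 5.19), and at 71.7 CPM in antagonist tuft cells (27 UMIs), 4.99-fold above (2.40 to 11.2). In enteroendocrine cells it was at 47.5 CPM (9 UMIs), 2.75 times the control (0.873 to 9.38), a difference not detectable at this depth. Cells in the Paneth gate of the antagonist library had 88.2 CPM of Arg2 (225 UMIs), 43.8-fold above the control gate (19.8 to 120, 6 UMIs). The median depths of these gates were 2954 UMIs in the antagonist and 1308 in the control library. Summed UMIs give deep cells more weight. They also had 458 CPM of Fabp1, against 10.1 CPM in the control gate, and 1704 against 99.8 CPM of Dmbt1, a secreted scavenger receptor gene of the epithelium. The part of RNA from other cells in the Paneth gate was not tested.

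**Figure D1:**
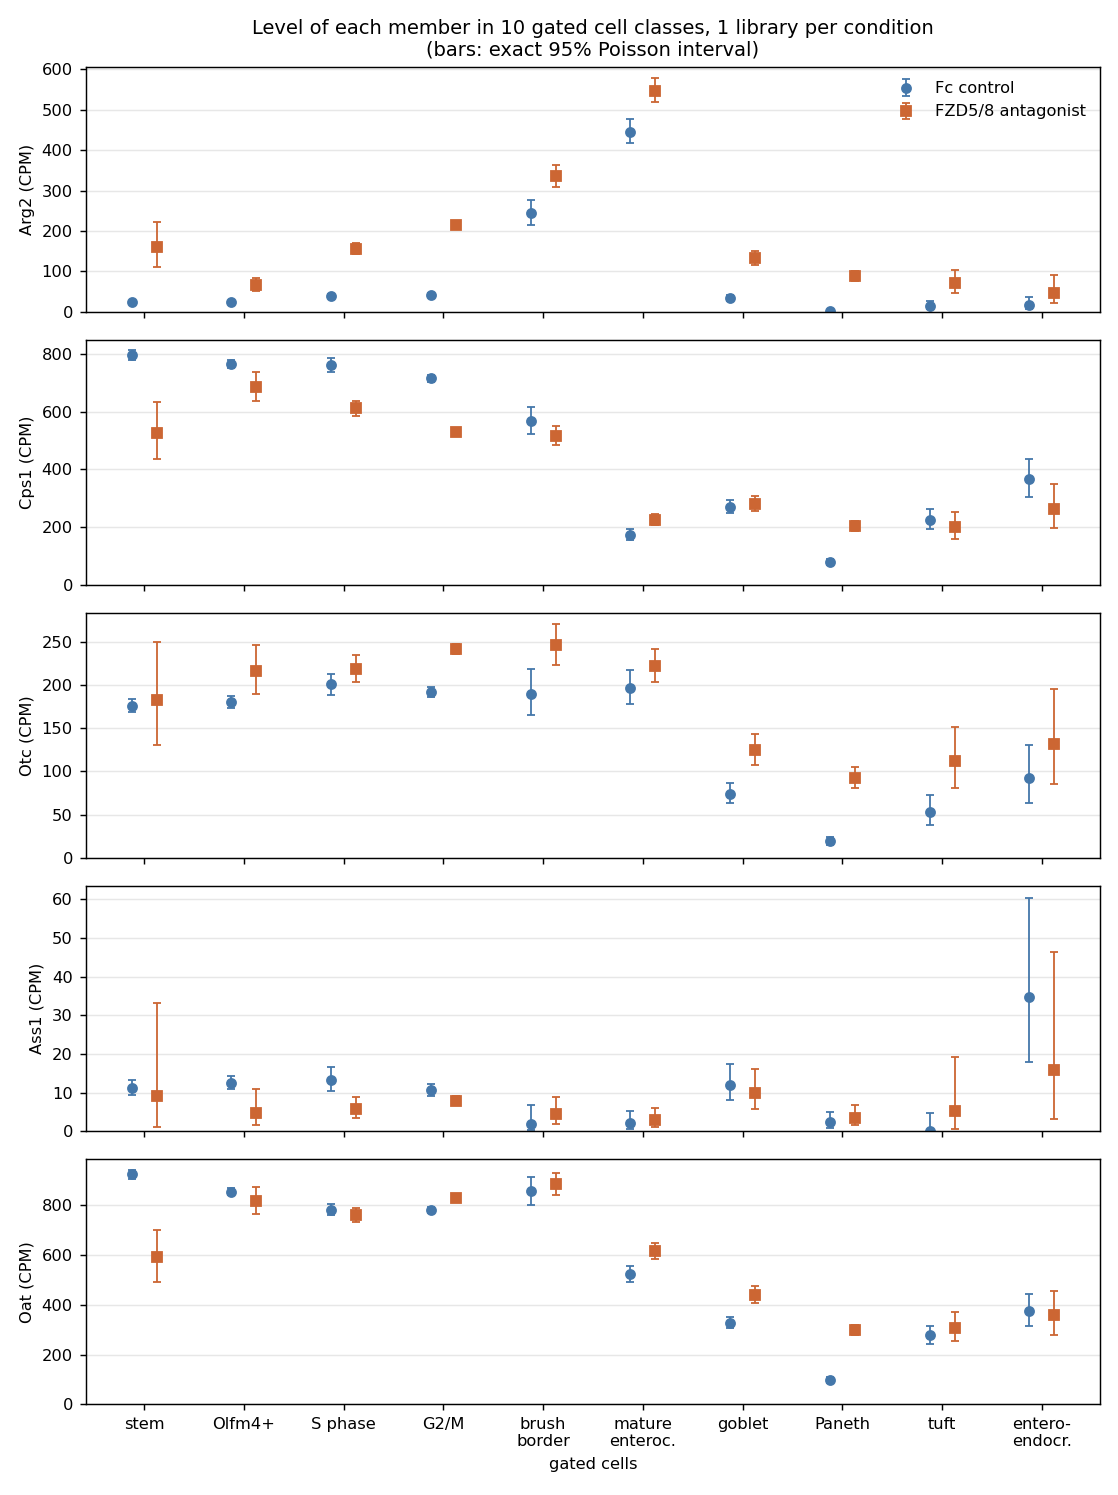
Levels of the 5 genes (CPM, 1 panel per gene) in gated cells of the control and antagonist libraries; points are summed UMIs of 1 library and bars exact 95% Poisson intervals. Arg2 is highest in mature enterocyte cells of both libraries (446 and 547 CPM), and Cps1 is highest in stem or Olfm4-positive cells (794 and 686 CPM).

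Cps1 ran the other way along the same cells. In the control library it was at 794 CPM in stem gated cells (778 to 811), 765 CPM in Olfm4-positive cells, 760 CPM in S phase cells and 716 CPM in G2/M phase cells. It was at 568 CPM in the brush border gate and 174 CPM in mature enterocyte cells (156 to 194), 4.56-fold below the stem level (4.09 to 5.09). In the antagonist library the values were 526, 686, 611, 530, 516 and 225 CPM in the same order of gates, and the mature enterocyte level was 2.34-fold below the stem level (1.89 to 2.86). Cps1 was thus lowest of these gates in mature enterocyte cells of both libraries, with the stem, Olfm4-positive and S phase intervals overlapping in the control.

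Between the libraries, Cps1 was 1.51-fold lower with the antagonist in stem gated cells (1.26 to 1.83), 1.24-fold lower in S phase cells (1.18 to 1.31) and 1.35-fold lower in G2/M phase cells (1.32 to 1.38). In mature enterocyte cells it was 1.29-fold higher (1.13 to 1.48). In goblet cells it was at 270 and 279 CPM, and in tuft cells at 226 and 202 CPM. With halved gate thresholds the log2 ratio in stem gated cells was 0.035. Halving left the Lgr5 rule as it was and let other gates take cells from the stem gate. This value thus rests on only part of the 45 cells, and Arg2 there had too few UMIs for a ratio. It is not read as a change of direction, and the lower level depends on how the 45 cells were set apart.

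Otc, the enzyme that uses the product of Cps1, was nearly even from stem gated to mature enterocyte cells. In the control library it was at 176 CPM in stem gated, 180 CPM in Olfm4-positive, 201 CPM in S phase, 192 CPM in G2/M phase, 190 CPM in brush border gated and 197 CPM in mature enterocyte cells. The mature enterocyte level was 1.12-fold the stem level (0.999 to 1.25), a difference within counting error. With the antagonist these levels were 183, 216, 219, 241, 246 and 222 CPM. The ratio between the libraries was 1.04 in stem gated cells (0.740 to 1.42), 1.26 in G2/M phase cells (1.21 to 1.31) and 1.13 in mature enterocyte cells (0.988 to 1.29). Secretory cells had less Otc than absorptive cells: it was at 74.5 and 124 CPM in goblet cells and 53.5 and 112 CPM in tuft cells of the control and antagonist libraries.

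Ass1 was sparse, and its values rest on few UMIs. In the control library it was at 11.1 CPM in stem gated cells (123 UMIs), 12.4 CPM in Olfm4-positive cells, 13.2 CPM in S phase cells and 10.5 CPM in G2/M phase cells. It was at 2.05 CPM in mature enterocyte cells (4 UMIs), 5.42-fold below the stem level (2.06 to 20.2). The highest control level was in enteroendocrine cells, 34.6 CPM from 12 UMIs (17.9 to 60.4). With the antagonist Ass1 was at 4.63 CPM in Olfm4-positive cells (5 UMIs), 5.74 CPM in S phase cells and 7.93 CPM in G2/M phase cells, 1.33-fold below the control in the last (1.09 to 1.61). In mature enterocyte cells it was at 2.93 CPM (7 UMIs), 1.43 times the control (0.363 to 6.66), a difference not detectable at this depth.

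Oat was present along the whole axis. In the control library it was at 925 CPM in stem gated cells, 854 CPM in Olfm4-positive cells, 783 CPM in S phase cells, 782 CPM in G2/M phase cells, 856 CPM in the brush border gate and 523 CPM in mature enterocyte cells. The mature enterocyte level was 1.77-fold below the stem level (1.66 to 1.89). With the antagonist the values were 591, 818, 761, 828, 885 and 616 CPM, and the mature enterocyte level was 1.04-fold the stem level (0.871 to 1.26). Oat was 1.57-fold lower with the antagonist in stem gated cells (1.32 to 1.88) and 1.18-fold higher in mature enterocyte cells (1.09 to 1.28). Halved thresholds gave a log2 ratio of 0.060 in stem gated cells, from only part of these cells. In goblet cells it was at 328 and 441 CPM, 1.34-fold higher with the antagonist (1.21 to 1.49).

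The same levels were then read along a continuous axis, the UMIs per 10000 that a cell gave to the 22 genes of the mature enterocyte and brush border lists, which hold none of the 5 genes. In the control library Arg2 was higher at every step of this axis, from 7.39 CPM in cells with under 5 such UMIs per 10000 to 27.3 CPM at 10 to 20, 187 CPM at 40 to 80 and 428 CPM at 320 or more. With the antagonist it ran from 26.7 CPM through 108 and 242 CPM to 602 CPM in the same bins. The ratio between libraries was 3.62 in the lowest bin, 5.41 at 5 to 10, 3.96 at 10 to 20 and 2.83 at 20 to 40. It was 1.29 at 40 to 80 and 1.10 (0.949 to 1.29) at 80 to 160, where the libraries did not differ beyond counting error, and 1.58 and 1.41 in the top bins. The fullest bins differed: 5140 of the 11263 control cells were at 10 to 20, and 4479 of the 11019 antagonist cells at 20 to 40.

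Cps1 along this axis was highest at 10 to 20 in both libraries, at 741 CPM in the control and 570 CPM with the antagonist, and was at 137 and 151 CPM in the top bin. Otc stayed between 154 and 198 CPM in the control library and between 153 and 240 CPM in the antagonist library outside the lowest bin. Oat peaked at 822 CPM at 10 to 20 in the control library and was at 409 CPM in the top bin; in the antagonist library it was highest, 816 CPM, at 160 to 320 and was at 490 CPM in the top bin. Ass1 stayed at or below 12.0 CPM in every bin of both libraries. In the lowest bin all 5 genes were below their level in the next bin in both libraries, with Otc at 71.3 CPM and Cps1 at 330 CPM in the control.

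**Figure D2:**
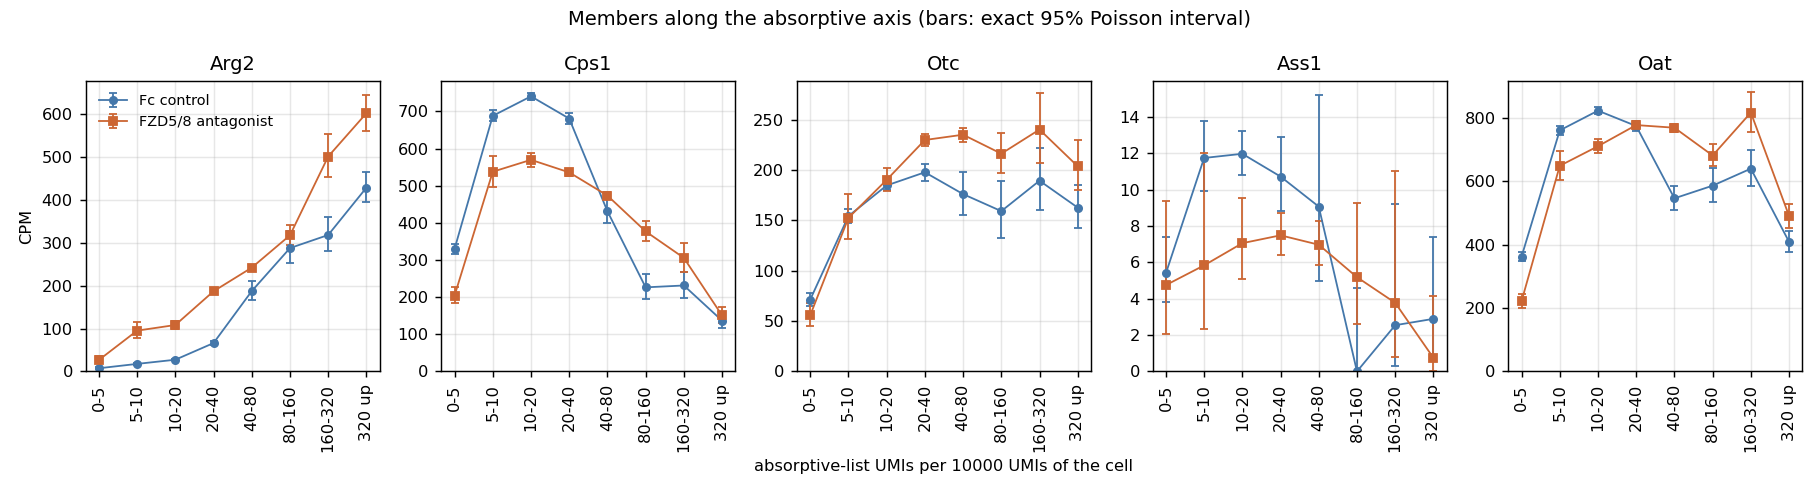
Levels of the 5 genes (CPM) in cells binned by their UMIs per 10000 from 22 absorptive enterocyte genes, for each library; bars are exact 95% Poisson intervals. Arg2 is highest in the top bin of both libraries, at 428 and 602 CPM, while Cps1 is highest in the middle bins and at 137 and 151 CPM in the top bin.

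G2/M phase cells, the largest gate of the antagonist library, were split by Olfm4, and in the control the Arg2 level was lower in each bin with more Olfm4. Among control G2/M cells, Arg2 was at 192 CPM (158 to 231) in the 128 cells with no Olfm4 UMI, 99.9 CPM below 10 Olfm4 UMIs per 10000, 33.8 CPM at 10 to 20, 15.1 CPM at 20 to 40 and 12.0 CPM at 40 or more. Antagonist G2/M cells had 204 CPM (193 to 215) in the 2158 cells without Olfm4, 225 CPM below 10, 68.9 CPM at 10 to 20, 47.1 CPM at 20 to 40 (16 UMIs) and 61.1 CPM at 40 or more (4 UMIs). Without Olfm4 the libraries differed by a ratio of 1.06 (0.876 to 1.30), and these cells had similar median depths, 2126 and 2321 UMIs. The ratio was 2.25 (2.04 to 2.50) below 10, 2.04 (1.45 to 2.83) at 10 to 20, 3.12 (1.72 to 5.30) at 20 to 40 and 5.11 (1.32 to 14.2) at 40 or more. When the Olfm4 bins were given the same weight in both libraries, the log2 ratio of Arg2 in G2/M phase cells was 0.67, against 2.33 over the gate as a whole; this split was chosen after seeing the data. A cell's Olfm4 share and its bin rest on few UMIs at low depth, and bins from 10 upward had median depths of 3956 to 5872 UMIs in the control and 1813.5 to 2129 in the antagonist library. Below 10 the median depths were 8019 and 5441.5 UMIs. Cells of 1 bin thus need not have equal Olfm4 levels in the 2 libraries.

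Cps1 was higher in dividing cells with more Olfm4. In control G2/M phase cells it was at 428, 530, 646, 771 and 985 CPM from no Olfm4 to 40 or more, and in antagonist cells at 529, 518, 724, 827 and 1008 CPM. Within these Olfm4 bins the Cps1 ratio was 1.24 with no Olfm4 UMI (1.09 to 1.41), 0.977 below 10 (0.933 to 1.02) and 1.12 at 10 to 20 (1.02 to 1.23). With the bins weighted alike its log2 ratio in G2/M phase cells was 0.11, against -0.43 over the gate. Otc stayed between 178 and 245 CPM in all bins of both libraries. Oat in the control ran from 503 CPM without Olfm4 to 1057 CPM at 40 or more, and in the antagonist library lay between 745 and 993 CPM. Oat was 1.48-fold higher with the antagonist in G2/M cells without Olfm4 (1.32 to 1.67) and 1.52-fold higher below 10 (1.46 to 1.59).

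**Figure D3:**
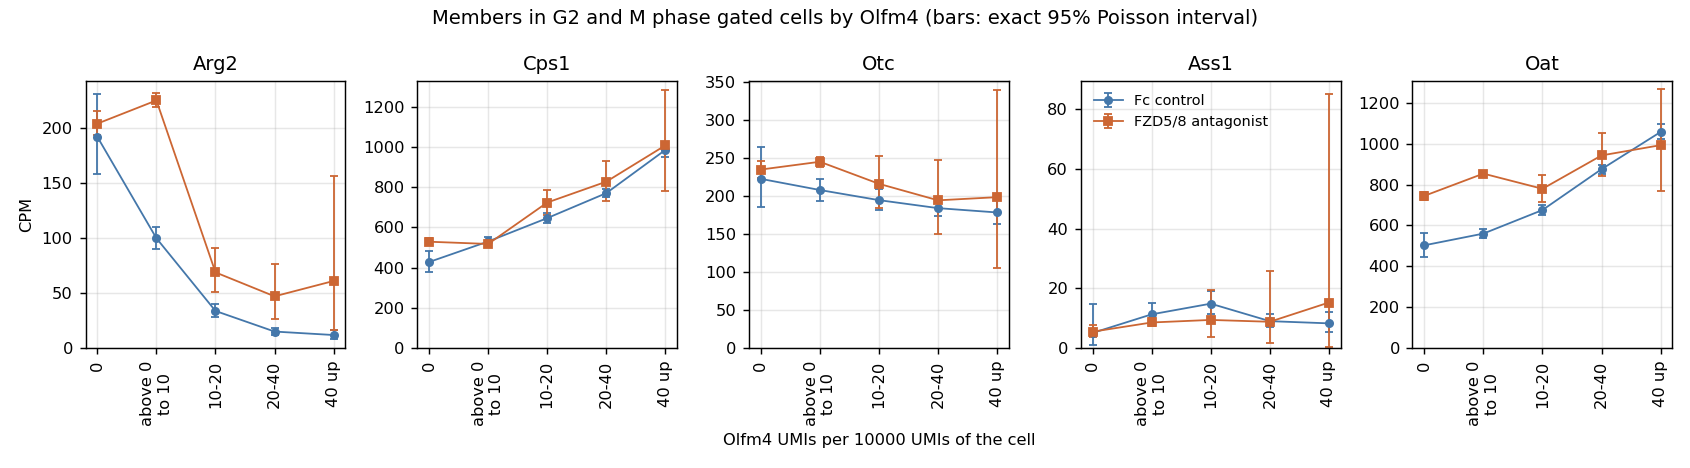
Levels of the 5 genes (CPM, 1 panel per gene) in G2/M phase cells binned by Olfm4 UMIs per 10000, for each library, with exact 95% Poisson intervals. Arg2 is at 192 and 204 CPM in cells without Olfm4 and lower where Olfm4 is high, and Cps1 is higher where Olfm4 is high.

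Counted by cell, both the share of cells with an Arg2 UMI and the UMIs per such cell were higher with the antagonist. With each cell thinned to 3000 UMIs (3727 control and 5983 antagonist cells were shallower and left out), an Arg2 UMI was found in 9.04% of the control (8.40 to 9.71) and 40.7% of the antagonist cells (39.3 to 42.1); unthinned, the shares were 13.5% and 38.0%. Cells with an Arg2 UMI had on average 1.29 and 1.51 of them after thinning, and 2.09 and 2.73 before. A share of cells with a UMI follows the mean level at this depth, so it does not tell more expressing cells from more transcripts per cell. The thinned share was 8.08% and 40.9% in G2/M phase cells, 9.44% and 33.0% in S phase cells and 66.9% and 73.8% in mature enterocyte cells. Tuft cells, which are not absorptive, gave 3.06% (0.636 to 8.69) in the control and 7 of 35 cells (8.44% to 36.9%) with the antagonist, at median depths of 3932 and 1751 UMIs before thinning, against 5290.5 and 3247 in G2/M phase cells. The control stem share of 7.15% (5.87 to 8.61) had an interval overlapping that of control tuft cells. The antagonist Olfm4-positive share of 12.1% (6.63 to 19.9) and stem share of 37.5% (18.8 to 59.4) overlapped that of antagonist tuft cells. Antagonist tuft cells had 71.7 CPM of Arg2, so their share is not a background level, and these shares cannot be ranked. Goblet cells had an Arg2 UMI in 3.33% and 25.4% of cells.

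The other genes differed less by cell. At 3000 UMIs, Cps1 was found in 79.1% of control and 71.0% of antagonist cells, Otc in 39.5% and 45.6%, Oat in 82.3% and 79.9%, and Ass1 in 3.22% and 1.71%. Cps1 was found in 87.8% of control stem gated cells, 29.6% of control mature enterocyte cells and 35.7% of control tuft cells, so its share in mature enterocytes lay at the level of tuft cells. With the antagonist the shares were 66.7% (24 cells), 41.1% and 60.0% (35 cells). Of 98 control tuft cells 0 had an Ass1 UMI, which allows a share of cells with a UMI of up to 3.06% (3 counts; the exact 95% limit is 3.69%), and Ass1 in control stem gated cells was at 3.29% (2.43 to 4.36).

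Within the G2/M phase cells thinned to 3000 UMIs, cells with and without an Arg2 UMI were compared inside each library (157 and 1787 cells in the control, 896 and 1297 with the antagonist). Olfm4 was lower in the cells with Arg2, at 0.575 times the level of those without in the control (0.532 to 0.619) and 0.643 times with the antagonist (0.584 to 0.708). Dmbt1 was 2.70-fold higher in the control (2.55 to 2.86) and 1.20-fold higher with the antagonist (1.17 to 1.23). Cps1 did not differ beyond counting error, with ratios of 1.01 (0.906 to 1.13) and 0.962 (0.899 to 1.03), nor did Otc, with 1.21 (0.982 to 1.48) and 1.03 (0.927 to 1.14). Oat was at 0.928 times in the control (0.832 to 1.03) and 1.08 times with the antagonist (1.02 to 1.14), the latter beyond counting error. Arg2 thus marked dividing cells with less Olfm4 in both libraries. Cells of 1 library share their source, and these intervals take no account of differences between cells.

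The rest of the arginine network was read from lists chosen by function. Of 10 urea cycle and citrulline genes, 9 were measured, 2 of them at least 1.5-fold higher with the antagonist (Arg2 and Nags), 2 at least 1.5-fold lower (Ass1 and Arg1), and the median log2 ratio was 0.0028, beside -0.15 over all genes. Over all 13757 genes, 6.5% were called higher and 19.3% lower, and the counts of each list below stand beside these shares. Nags, whose product activates Cps1, was at 18.1 and 28.2 CPM, 1.56-fold higher (1.45 to 1.69). Slc25a15, the mitochondrial ornithine carrier gene, was at 40.8 and 53.0 CPM, 1.30-fold higher (1.23 to 1.37), and was at 45.0 CPM in stem gated and 94.3 CPM in mature enterocyte cells of the control. Slc25a13, an aspartate and glutamate carrier gene, was at 42.5 and 42.6 CPM. Asl, which makes arginine from argininosuccinate, was at 16.8 and 13.7 CPM. Arg1, the cytosolic arginase gene, had only 63 and 22 UMIs, and no UMI in mature enterocyte cells of either library, so the arginase UMIs of these cells were those of Arg2.

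Of 17 listed symbols for ornithine, proline and glutamate genes, 16 were in the files, and all 16 were measured. The symbol Pycr3 was not in the files. At least 1.5-fold higher were 2 (Gpt and Aldh4a1) and lower 2 (Glul and Prodh2), beside 6.5% higher and 19.3% lower over all genes. The median log2 ratio was -0.09. With cells thinned to 3000 UMIs 4 were lower. Glul, glutamine synthetase, was at 36.1 and 15.9 CPM, 2.27-fold lower (2.10 to 2.46), and in the control at 45.4 CPM in stem gated and 5.64 CPM in mature enterocyte cells. Glud1, glutamate dehydrogenase, was at 300 and 288 CPM, and Got2, mitochondrial aspartate aminotransferase, at 78.5 and 63.8 CPM. Aldh18a1, which makes the precursor of ornithine and proline from glutamate, was at 59.6 and 57.9 CPM, Pycrl, a pyrroline carboxylate reductase gene, at 89.6 and 89.3 CPM, and Prodh, proline dehydrogenase, at 40.3 and 46.9 CPM. Of the genes named here, Aldh18a1, Pycrl, Glud1 and Oat were thus nearly level between the libraries, and Glul was not.

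All 13 polyamine genes were measured, 1 at least 1.5-fold higher (Odc1) and 2 lower (Smox and Oaz2), with a median log2 ratio of -0.05, beside the same 6.5% and 19.3%; a size factor made this 2 higher and 1 lower. Odc1, ornithine decarboxylase, which takes the ornithine that arginase releases into polyamines, was at 40.9 and 63.1 CPM, 1.54-fold higher (1.47 to 1.62). Azin1, an inhibitor of the antizymes that degrade ornithine decarboxylase, was at 83.7 and 119 CPM, 1.42-fold higher (1.37 to 1.47), and in the control at 79.5 CPM in stem gated and 175 CPM in mature enterocyte cells. The antizyme gene Oaz1 was at 738 and 712 CPM, and Sat1, which acetylates spermidine and spermine, at 112 and 129 CPM. Srm was at 44.6 and 43.0 CPM and Sms at 71.5 and 61.3 CPM, the synthases of spermidine and spermine. Amd1 was at 18.9 and 21.8 CPM and Amd2 at 66.6 and 73.7 CPM; both are near-identical copies of the adenosylmethionine decarboxylase gene, and the counting could split reads between them. Paox, an oxidase of acetylated polyamines, was at 24.9 and 17.8 CPM, and Agmat, named for agmatine breakdown, at 34.8 and 27.7 CPM.

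Of 15 genes of arginine use and transport, 12 were measured, 5 at least 1.5-fold higher (Slc7a9, Gatm, Slc3a1, Gamt and Slc3a2) and 4 lower (Slc7a6, Ddah2, Slc7a2 and Nos2), with a median log2 ratio of 0.14, again beside 6.5% and 19.3%. Among the 9 of these genes with 100 or more UMIs, 4 were higher and 2 lower. Gatm, a creatine synthesis gene, had only 9 and 15 UMIs, and its ratio interval was 0.833 to 5.26. Slc7a9, the light chain of the brush border carrier for cystine and basic amino acids, was at 10.0 and 22.0 CPM, 2.19-fold higher (1.99 to 2.41). In the control library it was at 5.60 CPM in stem gated and 137 CPM in mature enterocyte cells, and in mature enterocyte cells of the antagonist library at 103 CPM. Slc3a2, the heavy chain shared by several amino acid carriers, was at 31.7 and 49.3 CPM, 1.55-fold higher (1.47 to 1.65), and in the control at 27.0 CPM in stem gated and 121 CPM in mature enterocyte cells. Slc7a1, a cationic amino acid transporter gene, was at 50.4 and 50.5 CPM. Slc7a2, another cationic amino acid transporter gene, was at 8.20 and 2.41 CPM, and in the control at 11.2 CPM in stem gated and 1.54 CPM in mature enterocyte cells. Slc7a9, Slc3a2 and Azin1 were thus, as Arg2, higher in mature enterocyte than in stem gated cells of the control, whereas Odc1 was at 37.0 CPM in stem gated and 32.8 CPM in mature enterocyte cells. The part of the larger number of enterocyte gated cells in these ratios was not tested.

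The genes whose levels ran most like each member were found over 20 points, the 10 gates of each library, by Pearson's r of log2(CPM + 1) among 5351 genes. The points share 2 libraries and differ in depth and number of cells, so r is a description. For Arg2 these genes included Chp2 (0.974), Ces2e (0.965), Maoa (0.950), Cox7a1 (0.948), Slc26a3 (0.946), Mall (0.943) and Dgat1 (0.942). For Cps1 they were Twnk (0.969), Atad3a (0.968), Cftr (0.956) and Nfib (0.956), and for Otc Mgst1 (0.971), Plcb3 (0.964), Bri3bp (0.960) and Nectin3 (0.960). For Oat they were Fh1, Tkt and Pde3a (0.958 each) and Fam210a (0.957). For Ass1 the highest values were lower, Ttr (0.791), Hk2 (0.787), Tceal9 (0.778) and Tor1b (0.750). Over the 10 points of the control library alone, 4 of the 8 genes of Arg2 were the same, and over those of the antagonist library alone 2 of 8; Chp2 was in each. Of the 4 genes of each other member, the control and the antagonist library alone shared 0 and 2 for Cps1, 2 and 0 for Otc, 3 and 0 for Ass1, and 0 and 0 for Oat, so these names depend on the points used.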

How the data were processed

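The data were droplet-based single-cell RNA libraries (10x Chromium V3.1) of sorted jejunal cells, 1 for each of the 2 conditions. The deposited matrices are raw UMI counts. Per the submitters' processing notes Cell Ranger and GRCm38 (mm10) had been used, and per the file headers the Cell Ranger version was 3.1.0. The annotation release is not given in the sources used here. Every deposited barcode had 500 or more UMIs (12672 and 13085 barcodes, 67411637 and 55810293 UMIs). Cells passed with 500 genes or more and no more than 20% mitochondrially encoded UMIs (88.9% and 84.2%). No doublet caller was run; cells that passed the gates of 2 differentiated types (157 and 194) were set apart, and an alternative left out the 5% of cells with the most UMIs.

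UMIs were summed per library or gate and divided by its total to give CPM, with exact Poisson intervals for levels, exact conditional binomial intervals for ratios and Clopper-Pearson intervals for shares, at 95%. Sums of 1 to 3 UMIs got no ratio and a count of 0 a floor of 3 counts. With 1 library per group no test was made. The gates needed, per 10000 UMIs, 20 from the tuft or enteroendocrine list, 1000 Paneth, 200 goblet, 100 mature enterocyte, 20 brush border (below the mature enterocyte threshold), 20 G2/M or 20 S phase UMIs, taken in that order; stem cells needed 1 Lgr5 UMI. These thresholds and the bins of Olfm4 were set after the data were seen, and not on the levels of the 5 genes.

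The 5 genes and the gene lists were chosen with earlier results of these data known. Named genes were the 5 members, every listed gene with 20 CPM or more in a library, and the genes most like a member (8 for Arg2, 4 for each other, with 20 CPM or more on average, unnamed gene models and mitochondrial, ribosomal and immunoglobulin genes left out); genes called on a list, and Asl, Arg1 and Slc7a2, were named in addition. Dmbt1, Fabp1, Muc2 and Lyz1 were chosen after their values were seen. Genes that the rule names and the text leaves out are not reported here. GENCODE vM21 held 31011 of the 31053 gene identifiers. The calculation was tested on simulated data. Alternatives were other cell filters, scalings, weights, depths, gate thresholds, gate compositions and limits on low counts. Python 3.11.15, numpy 2.4.6, scipy 1.17.1, pandas 2.3.3 and matplotlib 3.10.9 were used.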

Additional observations from a re-analysis of the deposited data

Results flagged for a closer look

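Among the stem, Olfm4-positive, S phase, G2/M phase, brush border, mature enterocyte and goblet gates, the contrast between the libraries ran in opposite directions for 2 genes. The Cps1 ratio of antagonist over control was 1.29 in mature enterocyte cells (1.13 to 1.48) and 0.663 in stem gated cells (0.546 to 0.797). The Oat ratio was 1.34 in goblet cells (1.21 to 1.49) and 0.639 in stem gated cells (0.533 to 0.760). In the Paneth gate, left out of this comparison, the ratios were higher, at 2.58 for Cps1 (2.21 to 3.03) and 3.06 for Oat (2.67 to 3.52). Its median depths were 1308 UMIs in the control and 2954 in the antagonist library. Each gate has 1 library per group, so these differences between gates were not tested. The antagonist stem gate held 45 cells. With halved gate thresholds both stem ratios were above 1, but rested on only part of these cells.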

How the results depend on the processing

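Values here are log2 ratios of antagonist over control. Over all kept cells Arg2 stayed higher under each of 10 alternatives (1.51 to 2.52), Otc higher (0.24 to 0.50), Cps1 lower (-0.53 to -0.25) and Ass1 lower (-0.97 to -0.51), while Oat kept its sign in 4 of 10 (-0.21 to 0.12). A size factor gave Arg2 2.24, Cps1 -0.29, Otc 0.50, Ass1 -0.51, Oat 0.12 and Arg2 in G2/M cells 2.49. Weighting each cell alike gave Arg2 2.31, Cps1 -0.48, Otc 0.31 and Oat -0.19, and 1.68 for Arg2 in the brush border gate. The value of Ass1 under this weighting is not reported here. Thinning to 3000 UMIs gave Arg2 2.40, Cps1 -0.53, Otc 0.26, Ass1 -0.97 and Oat -0.21, and Arg2 2.62 in G2/M, 0.71 in brush border and 0.49 in mature enterocyte cells. Without the 5% of cells with the most UMIs these were 2.32, -0.48, 0.24, -0.95 and -0.21, and Arg2 was 1.69 in stem, 2.48 in G2/M and 1.21 in brush border gated cells. Without differentiated gates Arg2 was 2.52, Cps1 -0.44 and Oat -0.036; without cells of no gate or of 2 gates, chosen after seeing the data, Arg2 was 2.19 and Cps1 -0.45; with gates weighted alike Arg2 was 1.51, Cps1 -0.25, Otc 0.29 and Oat 0.027. Doubled thresholds gave Arg2 2.07 in G2/M and 0.45 in mature enterocyte cells. Halved thresholds gave Arg2 1.82 in the brush border gate and -0.079 in mature enterocyte cells, and turned stem Cps1 to 0.035 and stem Oat to 0.060. Olfm4 bins weighted alike, also chosen after seeing the data, gave Arg2 0.67 in G2/M cells. The cause of these shifts was not tested. Halved thresholds left the Lgr5 rule as it was and let other gates take stem gated cells. Arg2 in the stem gated cells that were left had too few UMIs for a ratio. Summed over both directions, each list's count past 1.5-fold stayed within 1.5 times its value; by direction, urea cycle genes went from 2 to 1 higher with thinning and from 2 to 1 lower with a size factor or 100 or more UMIs, ornithine genes from 2 to 4 lower with thinning and from 2 to 1 lower with a size factor or without differentiated gates, polyamine genes to 2 higher and 1 lower with a size factor, and arginine use genes from 4 to 2 lower with 100 or more UMIs. At 1500 UMIs, 4.99% of control and 23.0% of antagonist cells had an Arg2 UMI. No paired analysis was possible because each group is 1 library and the labels carry no replicate number. The antagonist library is shallower, and values resting on few UMIs, those of Ass1 above all, are limited by that depth.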
